A study of Mus musculus with 15 samples.

Results

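In 539 of 29251 windows of the mouse genome, the DNA of double mutant cells held less methylation than that of all 3 other genotypes sorted with the same surface markers. The windows are 1 kb stretches of the 19 autosomes on build mm9, each with at least 3 CpGs read 10 or more times in all 15 libraries. A window was kept where the mean of the 3 double mutant libraries lay at least 10 percentage points below the mean of each of the 3 groups of megakaryocyte-erythroid progenitors (MEP). Such a fall is possible only where all 3 MEP means are at 10% or more, which held for 14337 windows, and 3.76% of those were kept. In the opposite direction, 2907 windows lay at least 10 points above each MEP mean in the double mutant. The windows were selected on the double mutant and MEP levels, so those levels are given below as a description and carry no test.

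Dnmt3a is an enzyme that places new methyl groups on cytosines of CpG pairs. The R140Q form of the mitochondrial enzyme Idh2 makes 2-hydroxyglutarate, which inhibits the TET enzymes that take methylation off. Loss of the first would be thought to lower methylation and gain of the second to raise it, and both mutations occur together in acute myeloid leukaemia. Lower methylation at an enhancer or promoter often goes with its use in a cell type, although methylation alone does not show expression, which was not analysed here.

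The assay was RRBS, reduced representation bisulfite sequencing. It reads fragments cut at CCGG sites and counts the cytosines that bisulfite leaves unconverted. All mice were C57BL/6. Wild type cells carried Mx1-cre and floxed Dnmt3a (Mx1-cre+;Dnmt3af/f), and Dnmt3a knockout cells were Mx1-cre+;Dnmt3a-/-. Idh2 mutant cells were Mx1-cre-;Dnmt3af/f with Idh2 R140Q, so they alone had no Cre, and double mutant cells were Mx1-cre+;Dnmt3a-/- with Idh2 R140Q. The titles of the wild type and knockout libraries also carry the label GFP, which those of the Idh2 mutant and double mutant lack. Mx1-cre acts in blood cells and in other tissues that respond to interferon. The first 3 genotypes were each sorted as MEP and as granulocyte-macrophage progenitors (GMP), with 2 libraries a group. The 3 double mutant libraries came from malignant marrow cells in the MEP gate (Lin-, cKit+, Sca1-, CD34-, Cd16/32-), so a difference from MEP is also one between malignant and other marrow, and the 2 cannot be told apart. No double mutant GMP were measured. The cell types could not be checked against expression markers. The labels call the libraries biological replicates but do not say that they came from separate animals, so p-values may measure only the spread between libraries.

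The libraries held 19306705 to 35204906 reads over cytosines, and the median depth at the CpGs used was 30 to 51 reads. In GMP the wild type libraries were deeper (30751438 and 30931339 reads) than the other 4 (19306705 to 22626291 reads). All 4 wild type libraries differed from the others in sex chromosome reads. Their X reads came to 2.21% to 2.25% of autosomal reads against 1.17% to 1.47% in the others, and their Y reads were fewer. Every comparison with wild type therefore also sets apart libraries of another sex chromosome content, and in GMP of another depth, and their part in the differences was not tested.

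The sequences of 6 windows show what was read. The first 4 are windows in which the double mutant lay far below the others, the Prdm16 window lies in a stem cell gene, and the Slc4a1 window is one in which a single CpG carried the fall. They are the forward strand of mm9, 5′ to 3′, with the measured CpGs in capitals, and no UTR is included.
Cd300a-side window, chr11:114773136-114773274: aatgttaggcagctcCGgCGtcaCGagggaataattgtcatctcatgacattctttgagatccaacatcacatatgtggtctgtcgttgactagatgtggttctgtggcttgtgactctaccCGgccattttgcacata
Itga2b window, chr11:102329572-102329862: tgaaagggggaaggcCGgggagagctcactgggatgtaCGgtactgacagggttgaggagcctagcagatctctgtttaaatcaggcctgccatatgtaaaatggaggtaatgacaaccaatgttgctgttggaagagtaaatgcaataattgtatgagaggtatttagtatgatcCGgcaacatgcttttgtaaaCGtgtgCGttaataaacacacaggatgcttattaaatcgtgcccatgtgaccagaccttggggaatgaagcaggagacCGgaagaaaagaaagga
Myof window, chr19:37993230-37993394: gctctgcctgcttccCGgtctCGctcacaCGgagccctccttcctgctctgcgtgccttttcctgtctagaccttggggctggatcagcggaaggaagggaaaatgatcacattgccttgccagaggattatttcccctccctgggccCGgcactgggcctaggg
Fry window, chr5:151247129-151247397: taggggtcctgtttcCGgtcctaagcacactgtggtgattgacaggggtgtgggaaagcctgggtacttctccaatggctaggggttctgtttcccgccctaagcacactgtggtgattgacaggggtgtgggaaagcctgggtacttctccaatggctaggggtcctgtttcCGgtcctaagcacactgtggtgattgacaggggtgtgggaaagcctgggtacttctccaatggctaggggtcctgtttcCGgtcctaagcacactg
Prdm16 window, chr4:153960444-153960578: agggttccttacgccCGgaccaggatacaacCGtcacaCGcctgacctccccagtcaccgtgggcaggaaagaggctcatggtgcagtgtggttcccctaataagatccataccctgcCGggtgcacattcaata
Slc4a1 window, chr11:102218599-102218740: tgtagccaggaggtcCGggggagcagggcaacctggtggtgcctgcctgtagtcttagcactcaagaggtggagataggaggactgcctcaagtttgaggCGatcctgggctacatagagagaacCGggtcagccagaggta
The Fry stretch repeats a shorter unit several times, and the longest part that occurs as 2 identical copies is 86 bases. Its 3 measured CpGs lie at the same place in the repeated unit, in the same surrounding bases. Reads from the copies could therefore be misplaced among them, and the 3 CpGs may not be separate measurements.

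In the first window all 4 CpGs had lost nearly all methylation in the double mutant. It is intergenic (chromosome 11, 114773001 to 114774000), 3455 bp from the start of the pseudogene Gm11698 and 21892 bp from the nearest protein-coding start, that of Cd300a, an inhibitory receptor of myeloid cells. The double mutant libraries held 0%, 0.592% and 2.67%, against 76.7% and 85.3% in wild type MEP, 74.1% and 83.6% in knockout MEP and 79.4% and 68.4% in Idh2 mutant MEP. The 0% rests on 97 reads summed over the 4 CpGs, which would allow up to 3.09% (3 counts, counting error only). A read that covers several CpGs is counted at each, so the independent reads are fewer and the true limit is higher. GMP libraries, which the choice did not use, lay between 71.9% and 91.9%. The double mutant libraries thus stood apart from all 12 others, with no overlap.

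Itga2b encodes integrin alpha IIb (CD41), a receptor of platelets and megakaryocytes that also marks early blood progenitors. Its window (chromosome 11, 102329001 to 102330000) lies inside the gene, 987 bp from the start of a shorter annotated transcript. The 3 double mutant libraries held 16.1%, 9.09% and 4.76%. Wild type MEP held 85.5% and 77.5%, knockout MEP 84.1% and 92.4%, and Idh2 mutant MEP 94.1% and 90.7%. All 6 CpGs were lower in the double mutant, by 54.7 to 78.5 points below the lowest MEP mean. In GMP the levels were 95.3% and 89.8% in wild type, 77.6% and 79.1% in the knockout and 90.8% and 94.4% in the Idh2 mutant. Knockout GMP lay 14.2 points below wild type GMP, a difference that did not pass the test described below (adjusted p = 0.363).

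An intron of Myof, which encodes the membrane repair protein myoferlin, held 10.6%, 15.9% and 9.58% in the double mutant (chromosome 19, 37993001 to 37994000). Wild type MEP held 84.3% and 82.9% and Idh2 mutant MEP 87.0% and 91.6%, while the knockout MEP libraries differed from each other, at 59.0% and 84.3%. Its first 3 CpGs lay at 3.61% to 7.39% in the double mutant and the last at 36.3%. The loss was therefore not even along the window. In Fry, which encodes a large scaffold protein of cell shape and division, a pair of neighbouring windows in introns was kept (chromosome 5, starting at 151246001 and 151247001). The double mutant means were 2.47% ± 1.25 and 2.06% ± 1.09 (SD, n = 3). In the second window, whose sequence is printed above, knockout MEP split into 30.6% and 73.6%, and GMP of all genotypes lay at only 29.2% to 62.5%.

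The 20 windows with the largest gaps whose libraries did not overlap were at least 41.0 points below the lowest MEP mean. In 8 of them the double mutant mean was under 10%. They lay in introns (11), between genes (4), in promoters (3, counting the Itga2b window) and in coding exons (2), and every measured CpG of all 20 was at least 10 points down. In these 20 windows the double mutant mean was also at least 17.6 points below the lowest GMP mean. The genes in or nearest to them had varied roles. Leprel2 is a collagen prolyl hydroxylase, Mapk4 an atypical MAP kinase, Tnrc6a a component of RNA silencing and Adra2c an adrenergic receptor, the last 2 being the nearest genes of intergenic windows. Pstpip2 restrains inflammation in macrophages, and Fbxo31 directs protein degradation.

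**Figure D1:**
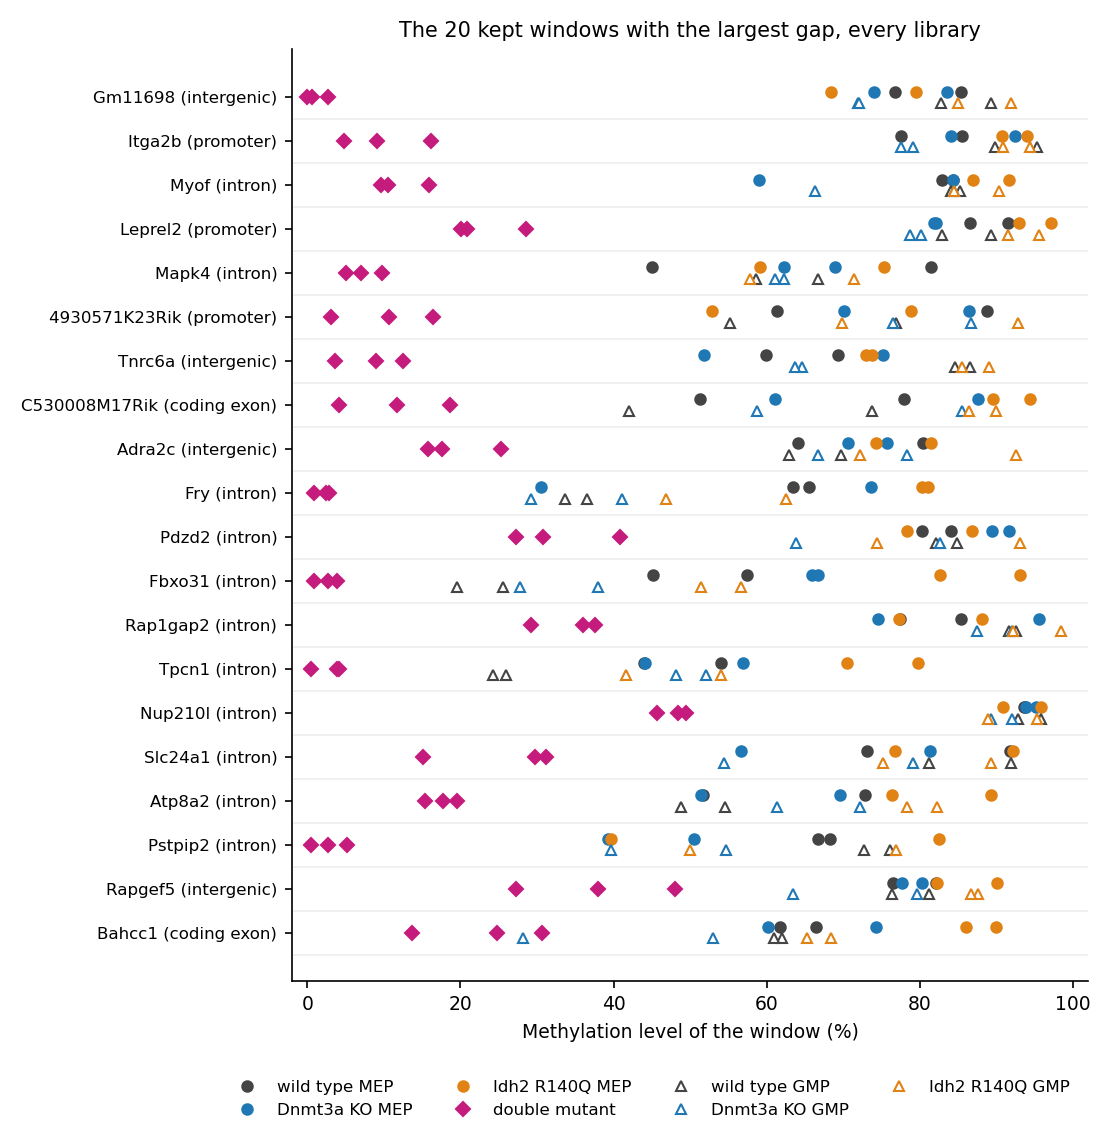
Methylation level (%) of the 20 kept windows with the largest gap, 1 row a window and 1 point a library; filled circles are MEP, diamonds double mutant and open triangles GMP libraries. All 3 double mutant libraries lie left of the 6 MEP libraries in each row by choice. They also lie left of the 6 GMP libraries except at Bahcc1, where 1 knockout GMP library (28.2%) lies left of a double mutant library (30.7%).

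Over all 539 windows the fall was mostly partial. The double mutant mean was under 10% in 77 windows, 10% to 30% in 96, 30% to 50% in 122, 50% to 70% in 160 and 70% or more in 84. The median gap to the lowest MEP mean was 15.8 points, with quartiles of 12.5 and 21.7, and it reached 20 points in 170 windows and 40 in 21. The median level over the windows was 46.2%, 49.7% and 43.0% in the double mutant libraries. It was 71.1% and 75.9% in wild type MEP, 69.8% and 75.2% in knockout MEP and 80.5% and 80% in Idh2 mutant MEP. In the 14337 windows that could have been kept the double mutant was the highest, with a median of the means of 92.4% against 87.3% to 90.5% for the MEP groups.

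**Figure D2:**
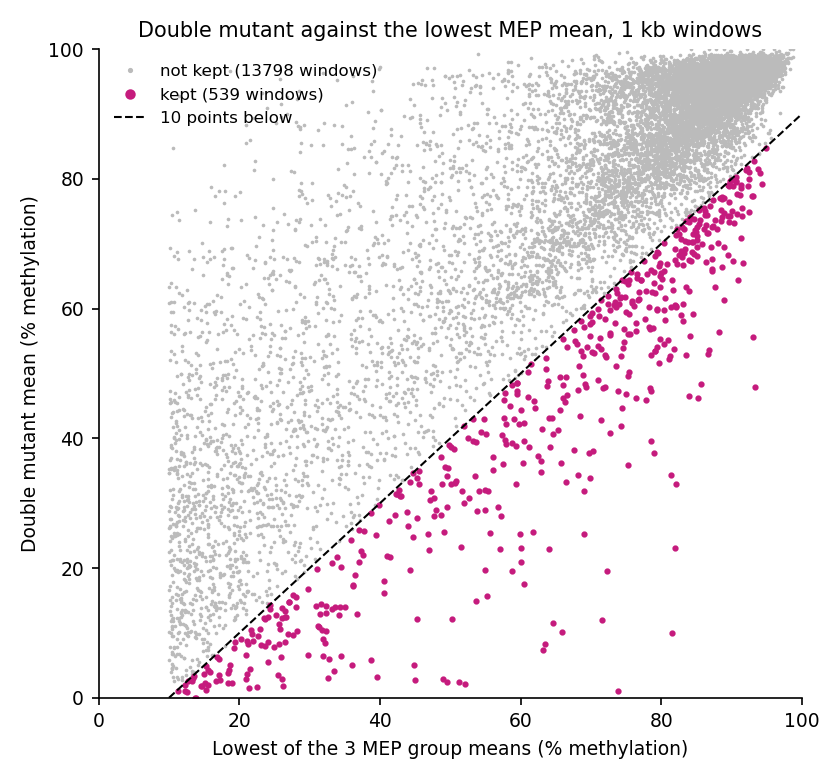
Mean level of the double mutant (vertical, %) against the lowest of the 3 MEP means (horizontal, %) for the 14337 windows that could have been kept, 1 point a window. The 539 kept windows (colour) lie below the dashed line of 10 points by choice and reach from 0% to over 80% on the vertical axis, while most windows lie near the upper right corner.

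The kept windows started from middling levels more often than the others. Of windows whose lowest MEP mean was 30% to 40%, 10.3% were kept, and of those at 50% to 60%, 9.96%. At 10% to 20% the share was 3.69% (31 of 840), near the 3.76% over all windows with room to fall. At 80% to 90% it was 2.51%, and at 90% or more 0.796% (33 of 4146). A window near the threshold was close to the noise: the Kif26a window, just inside at 10 points, held 58.0%, 45.2% and 51.1% in the double mutant against 59.1% to 75.3% in MEP. Just outside, the Gm12034 window had a gap of 9.99 points, with 47.7% to 51.6% in the double mutant and 51.3% to 71.1% in MEP.

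The 3 double mutant libraries varied among themselves in the kept windows. In 411 of the 539 windows all 3 lay below all 6 MEP libraries (4.07% of the windows with room to fall, though the choice used these values). The median distance from the highest to the lowest double mutant library was 11.5 points in the kept windows and 4.66 in windows that could have been kept. The third library was the lowest of the 3 in 266 windows, the first in 148 and the second in 125. In 96 windows the 3 libraries spread over 20 points or more, so the level of those windows is known only to about that.

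Within a window the loss often touched part of the CpGs. All measured CpGs were at least 10 points below each MEP mean in 82 windows, 2 or more in 376, 1 in 158 and none in 5. Of the windows 309 rested on 3 CpGs and 43 on 6 or more. The median was 150 reads per window and library, summed over CpGs, so a read covering several CpGs counts more than once. The Slc4a1 window is a case of 1 CpG. Its first CpG held 6.54% in the double mutant against 45.4% to 55.8% in the MEP means, while the other two held 100% in the double mutant and 62.7% to 91.7% in MEP. As the mean of its CpG levels the double mutant would lie above wild type MEP here, with a gap of -5.63 points to the lowest MEP mean. In the Irf8 window 2 CpGs fell and 3 lay above the lowest MEP mean.

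Few of the kept windows lay near another kept window, but few of the windows next to them were measured. Of the 539, 212 (39.3%) lay in introns, 198 (36.7%) between genes, 80 (14.8%) within 1 kb of a start site, 32 (5.94%) in coding exons, 14 in untranslated sequence and 3 in exons of non-coding genes. Among windows that could have been kept the shares were 35.4%, 41.3%, 12.8% and 7.52% for the first 4 classes. Over all measured windows promoters made up 45.9%, but most of those were near 0% and had no room to fall. The median distance to a protein-coding start site was 11561 bp in the kept windows and 17821 bp in those that could have been kept. The share kept ran from 1.62% on chromosome 10 and 1.71% on chromosome 13 to 4.96% on chromosome 19 and 5.02% on chromosome 2.

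Only 14 of the 539 windows had another within 10 kb. For 6 of them an adjacent 1 kb window, on either side, was kept too, and both windows of a pair are counted. Of the 59 measured windows that adjoined a kept one and were not kept themselves, 25 had room to fall. In 8 of these (32%) the double mutant lay below the lowest MEP mean, against 14% of all windows with room. Their median gap was -3.77 points, against -5.34 over all windows with room. The sequence was like that of the other windows: GC content had a median of 50.9% against 49.6%, and CpGs per kb 19 against 19. The letters of 8 motifs were searched on both strands of the 1 kb windows. CCGG, the cut site, was in all of them. AGATAA, read by GATA factors, was present in 36.4% of kept windows and 35.4% of those that could have been kept. The RUNX letters TGTGGT were present in 56.4% and 51.1%. The ETS letters GAGGAA were present in 65.7% and 63.4%. For TTGCNNAA, part of the C/EBP motif, the shares were 30.8% and 30.4%. For the AP-1 letters TGANTCA they were 24.7% and 21.7%. The E-box CACGTG was in 19.5% and 16%, and GGGCGG, read by SP factors, in 31.4% and 29.5%.

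By gene, 341 windows lay in or within 1 kb of the start of 332 genes, 317 of them in protein-coding genes. Ece1, an endothelin-converting protease, held 3 windows, all in introns, with gaps of 11.6, 12.6 and 13.3 points. Fry, Nfix, Hip1, Enthd1, Rab11fip4, Trim46 and 4933407C03Rik held 2 each. The Fry pair had a mean gap of 48.6 points, the largest of these 8 genes, and the Enthd1 pair one of 21.6.

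Of the erythroid and megakaryocyte gene list, 5 of 25 windows with room to fall were kept (20%), against 3.76% of all windows with room. They lay at Itga2b, Gp1bb, Slc4a1, Rhd and Car2. This list, like the others, was chosen with earlier results of these data known, and starting levels were not matched. The share is therefore a description and was not tested. The median gap over the list's 25 windows was -2.86 points, against -5.34 over all, so in most of the list the double mutant was not below the lowest MEP mean. Gp1bb, a subunit of the platelet receptor for von Willebrand factor, was kept on uneven libraries: the double mutant held 5.56%, 10.5% and 9.09%, and wild type MEP 41.4% and 10%. Knockout MEP held 52.4% and 20% and Idh2 mutant MEP 43.9% and 80.4%, so wild type replicate 2 overlapped the double mutant. Rhd, a blood group antigen of red cells, and Car2, carbonic anhydrase 2, fell partly. The double mutant held 55.8% ± 7.94 (SD, n = 3) at Rhd against MEP means of 69.9% to 72.2%, and 62.6% ± 9.64 at Car2 against 78.7% to 86.2%. Slc4a1, the anion exchanger of red cells, rested on 1 CpG as given above.

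Of the stem and early progenitor list 3 of 52 windows with room were kept, at Prdm16, Hoxb5 and Msi2. Prdm16 encodes a zinc finger protein on which blood stem cells depend, and its intron window (chromosome 4, 153960001 to 153961000) held 13.4%, 11.1% and 23.9% in the double mutant. Knockout MEP were intermediate at 31.1% and 50%, with 78.5% and 76.1% in wild type and 85.5% and 82.9% in Idh2 mutant MEP. The same order held at Msi2, an RNA-binding protein of stem cells, where double mutant libraries held 1.94% to 5.80%, knockout MEP 21.7% and 21.5%, and the other MEP 53.1% to 54.2%. The Hoxb5 promoter, of a homeobox gene used to mark long-term stem cells, held 44.4%, 50% and 64.3% in the double mutant and 67.2% to 91.0% in MEP. Here 2 of 3 CpGs fell, and the first stayed at 81.8%.

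Among the other lists, 1 of 21 granulocyte and macrophage windows was kept (Irf8, a factor that directs monocyte fate, 54391 bp from the window), 1 of 51 of the leukaemia and tumour suppressor list (Sept9, a cytoskeletal septin) and 5 of 85 of the developmental transcription factor list. The last were 2 windows of Nfix and 1 each of Tbx1, Pax7 and Pax2. The Tbx1 intron had the largest gap of these, 32.2 points, with 36.0%, 52.8% and 25.4% in the double mutant and 57.9% to 98.0% in MEP. The CpGs of the others were mixed. At Pax2 their gaps to the lowest MEP mean were -5.95, 2.49 and 3.60 points, and at Pax7 -10.8, 59.5 and 5.28. Both Nfix windows also held CpGs above the lowest MEP mean. None of 31 lymphoid, 21 methylation machinery or 33 imprinted windows with room to fall was kept.

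GMP levels were not used to choose the windows, although the tests below take their spread partly from libraries that were. The median level over the 539 windows was 74.8% in both wild type GMP libraries, 68.9% and 68.6% in knockout GMP and 81.0% and 82.5% in Idh2 mutant GMP. The double mutant mean was at least 10 points below each GMP mean in 416 windows, or 77.2%, against 4.1% of windows with room to fall. In 339 windows all 3 double mutant libraries lay below all 12 others (background 3.01%). Since the double mutant values chose the windows, these counts say only that GMP levels were mostly as high as MEP levels there. Wild type GMP lay at least 10 points below wild type MEP in 47 windows (background 2.45%) and at least 10 points above in 40 (background 3.59%). Fry and Fbxo31 are of the first kind: wild type GMP held 36.6% and 33.6% at Fry and 25.6% and 19.6% at Fbxo31, against MEP means of 64.5% and 51.3%.

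**Figure D3:**
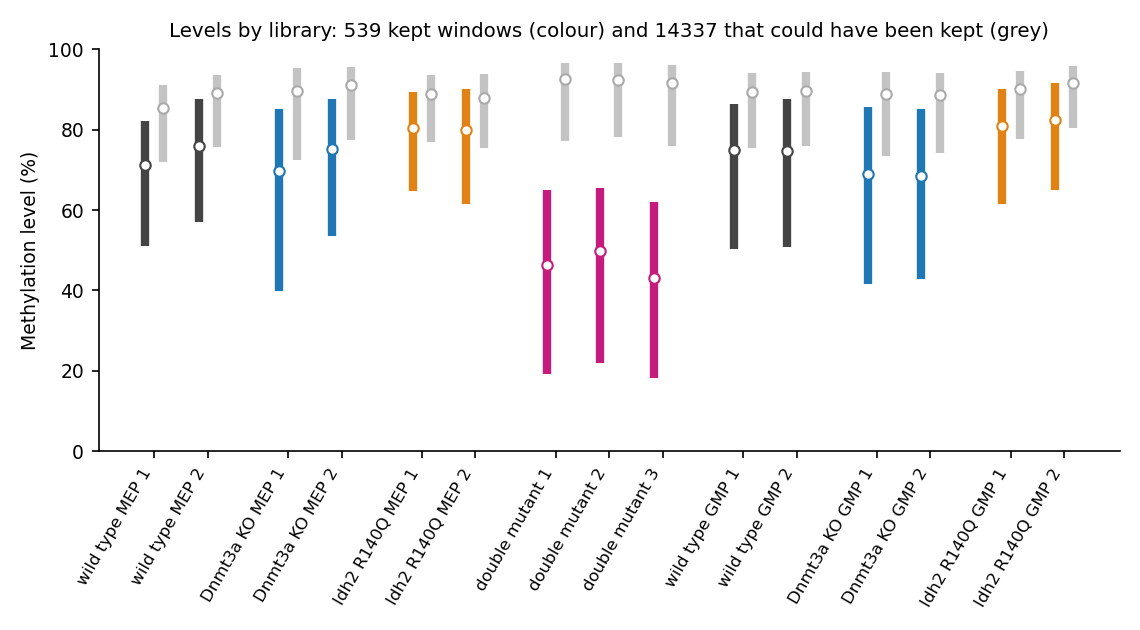
Methylation level (%) by library, with the median (circle) and quartiles (bar) over the 539 kept windows in colour and over the 14337 windows that could have been kept in grey. Kept windows have medians of 43.0% to 49.7% in the double mutant, 69.8% to 80.5% in MEP and 68.6% to 82.5% in GMP.

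Each of the 3 pairs of GMP groups was tested in all 29251 windows with a quasi-binomial model, and a window was called at an adjusted p under 0.05 (Benjamini-Hochberg) and a difference of at least 10 points. The 3 comparisons share libraries, so their values are given side by side and not counted as separate support. The spread in each test came from all 15 libraries, 9 of which the rule used, so the p-values are not free of the values that chose the windows. In kept windows the median dispersion was 2.44 to 3.29 in the MEP and double mutant groups and 1.33 to 1.92 in the GMP groups. Knockout GMP were lower than wild type GMP in 3 kept windows and higher in none, against a background of 0.13% called lower and 0.109% called higher. Idh2 mutant GMP were higher than wild type GMP in 11 (background 0.677%) and lower in none (0.082%). Idh2 mutant GMP were higher than knockout GMP in 40, or 7.42% (background 1.16%), and lower in none (0.0205%). Among windows with room to fall the 3 called shares were 0.223%, 0.949% and 1.72%.

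These counts depend on the model and on single libraries. With the dispersion prior estimated from all windows, which was the first fit made, they were 2, 6 and 25. The handling of windows without any spread was settled after those counts had been seen. With the GMP libraries fitted alone the counts rose to 9, 29 and 76. In the second comparison 27 were then higher in Idh2 mutant GMP and 2 lower. limma called none of the kept windows in any of the 3 comparisons (55, 89 and 144 had an unadjusted p under 0.05) and 0, 0 and 3 of all windows. Without wild type replicate 1, wild type replicate 2 or knockout replicate 1 the first count fell to 1, and without knockout replicate 2 to 0. The second fell to 0 without either wild type library or without Idh2 mutant replicate 1. The third became 2 without knockout replicate 1, 6 without knockout replicate 2, 9 without Idh2 mutant replicate 1 and 20 without Idh2 mutant replicate 2. In each such fit the lone library is assumed to vary like the other groups.

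Differences in GMP leaned one way over the windows as a whole. Knockout GMP were lower than wild type GMP in 343 of 539 windows (63.6%), against 55.5% of windows with room to fall and 47.1% of all. The median difference was -2.65 points, against -0.53 and 0. Idh2 mutant GMP were higher than wild type GMP in 412 (76.4%, against 62.4% and 65.8%), by a median of 5 points against 1.23 and 0.69. They were higher than knockout GMP in 458 (85%, against 65.8% and 65.2%), by 8.34 points against 1.62 and 0.72. Part of the lean was thus present in the other windows too. By size alone, with no test, knockout GMP were at least 10 points lower than wild type GMP in 134 windows (24.9%, background 8.07%) and higher in 33 (background 3.65%). Idh2 mutant GMP were at least 10 points higher than wild type GMP in 168 (31.2%, background 12%) and lower in 17 (background 3.65%). Against knockout GMP they were higher in 246 (45.6%, background 14.7%) and lower in 15 (background 2.23%). Starting levels differ between these sets. At a lowest MEP mean of 40% to 70%, the median of Idh2 mutant minus knockout GMP was 14.9 points in 164 kept windows and 5.58 in 1733 not kept. At 70% to 90% it was 4.67 points in 222 kept and 1.45 in 6295 not kept. At 10% to 40%, knockout GMP were at least 10 points below wild type GMP in 37.5% of kept and 26.6% of not kept windows. They were at least 10 points above in 4.17% and 6.76%. Idh2 mutant GMP were at least 10 points above wild type GMP there in 50.8% and 35.5%, and below in 6.67% and 9.41%. At 40% to 70% the shares were 37.2% and 21.4% for knockout lower, and 45.7% and 32.2% for Idh2 mutant higher. GMP and MEP libraries of a genotype may come from the same animal, and their deviations from the group means correlated at 0.36 in wild type, -0.04 in the knockout and 0.51 in the Idh2 mutant over all windows, so GMP values are not wholly apart from the values that chose the windows.

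**Figure D4:**
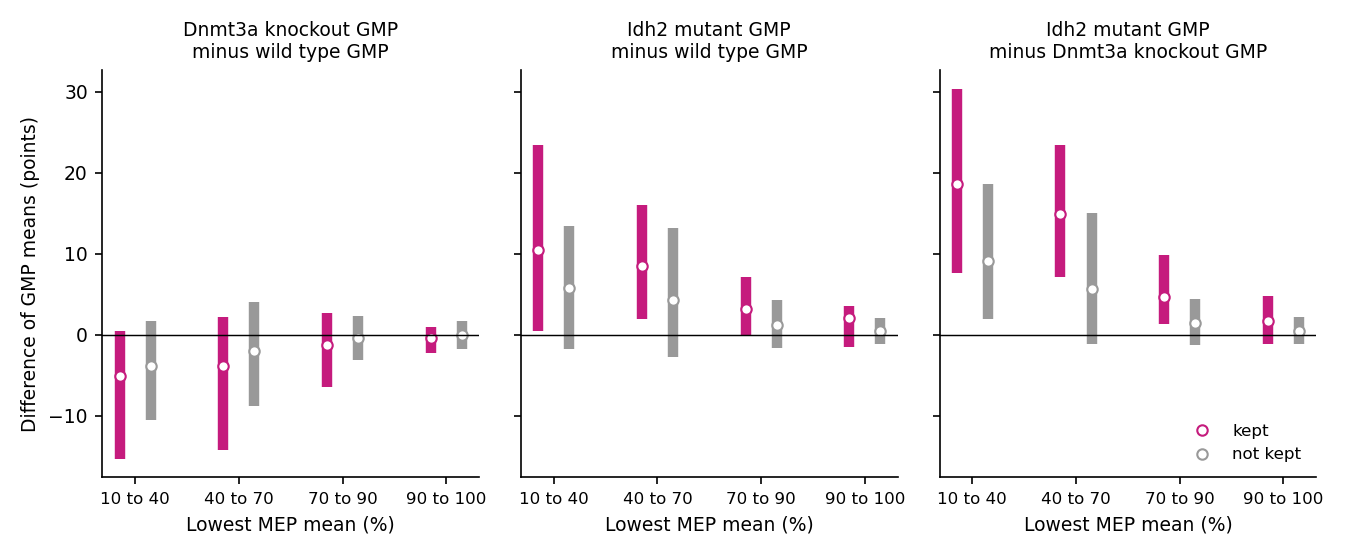
Difference of GMP group means (percentage points, first minus second group in each title) by the lowest MEP mean of the window (%), with the median (circle) and quartiles (bar) over kept windows in colour and not kept windows in grey. Kept windows with a lowest MEP mean of 10% to 40% have a median of 18.6 points for Idh2 mutant minus knockout GMP against 9.07 in those not kept, and the medians shrink towards 0 at 90% or more.

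The 3 windows called lower in knockout GMP lay in introns. Epha2 encodes an ephrin receptor kinase, and its window (chromosome 4, 140868001 to 140869000) held 73.8% and 69.8% in wild type GMP and 26.3% and 19.7% in knockout GMP, a fall by 48.8 points (adjusted p = 0.00441). In Idh2 mutant GMP it held 75.4% and 81.1%, and the double mutant libraries held 1.78% to 5.87%. All 4 CpGs moved together, from 65.7% to 78.7% in wild type GMP to 15.3% to 29.6% in knockout GMP. The call ended without wild type replicate 1 (adjusted p = 0.07) or knockout replicate 2 (0.0787) and with limma (0.308). Sufu, which restrains Hedgehog signalling, held 78.2% and 87.0% in wild type GMP against 37.0% and 30.1% in knockout GMP (adjusted p = 0.00972). Knockout MEP were low there too, at 20.4% and 34.8%, and the double mutant at 6.64% to 14.8%. It lost the call without wild type replicate 2 or either knockout library (adjusted p = 0.137, 0.0953 and 0.106) and with limma (0.22).

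Arhgap9 was the third, and its window held the most CpGs of these, 11. Wild type GMP held 53.7% and 71.0%, knockout GMP 30.1% and 23.6% and the double mutant 7.58% to 15.3%. The difference of 35.5 points was called at an adjusted p of 0.0398. That call was lost without any of the 4 libraries (adjusted p = 0.0515 to 0.631), with limma (0.498), with the prior from all windows (0.0866) and with a replicate block (0.0531).

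The 11 windows higher in Idh2 mutant GMP than in wild type GMP rose by 23.0 to 40.1 points, and 8 of them lay in introns. Krt8, a keratin of simple epithelia, rose from 24.8% and 9.89% to 65.2% and 49.6% (adjusted p = 0.0344), and knockout GMP held 4.32% and 20.8%. MEP showed the same order, with 35.1% and 17.1% in wild type and 63.9% and 63.6% in the Idh2 mutant, while the double mutant held 2.47% to 3.73%. Both Nfix windows were among them. Nfix is a nuclear factor I protein active in blood stem cells, and its windows went from 35.5% ± 5.42 to 65.9% ± 0.694 and from 17% ± 1.03 to 52.2% ± 0.959 (SD, n = 2 each; adjusted p = 0.0155 and 0.0396).

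Further windows of this group lay at Zbtb16, the PLZF gene rearranged in some promyelocytic leukaemias, at Slc22a3, an organic cation transporter, and at Fbxo31, Fmnl1, Rph3al and Ece1. Zbtb16 held 30.3% and 36.9% in wild type and 75.9% and 67.3% in Idh2 mutant GMP (adjusted p = 0.0435). The gaps of its CpGs to the lowest MEP mean were -4.42, 2.88, 6.56 and 19.5 points, so its fall in the double mutant was uneven. In the Slc22a3 promoter, with 8 CpGs, Idh2 mutant GMP held 59.8% and 63.8% against 35.6% and 40.9% in wild type (adjusted p = 0.0433) and 24.4% and 17.1% in the knockout. The double mutant held 0.709% to 2.09% there, below all MEP libraries at 13.8% to 32.1%. Of the 10 named windows of this comparison, none kept its call without either wild type library, without Idh2 mutant replicate 1 or with limma, where the adjusted p reached 0.316, 0.315, 0.355 and 0.355.

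Of the 40 windows in which Idh2 mutant GMP lay above knockout GMP, 24 were in introns, 10 between genes and 3 in promoters, with differences of 19.2 to 58.5 points. Their median level was 77.2% in Idh2 mutant and 34.5% in knockout GMP, and 16.0% in the double mutant. The largest was an intron of Nceh1, a cholesterol ester hydrolase of macrophages, at 77.8% and 93.4% against 21.7% and 32.5% (adjusted p = 0.0278). Wild type GMP were high there as well, at 76.1% and 83.7%. At Prdm16, knockout GMP held 50% and 58.5%, Idh2 mutant GMP 84.0% and 82.9% and wild type GMP 75% and 87.7% (adjusted p = 0.0377 for Idh2 mutant against knockout). Msi2 held 20.4% and 32.2% in knockout and 58.2% and 53.2% in Idh2 mutant GMP (adjusted p = 0.0235), and Sept9 64.1% and 62.8% against 82.7% and 94.5% (adjusted p = 0.0419).

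The called windows were of different kinds. At Epha2, Sufu, Arhgap9, Nceh1, Prdm16 and Msi2 the knockout mean was below the wild type and Idh2 mutant means, in MEP as in GMP. At Krt8, both Nfix windows, Fmnl1 and Ece1 the Idh2 mutant mean was above both others in MEP and in GMP. In both kinds the double mutant lay below the knockout MEP mean, which the choice of windows required. Of the 18 named windows of the Idh2 mutant against knockout comparison, Epha2 (adjusted p = 0.00491) and Slc22a3 (0.00379) alone kept their calls without each of the 4 libraries and with the prior from all windows, and limma called neither (adjusted p = 0.0777 and 0.121).

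**Figure D5:**
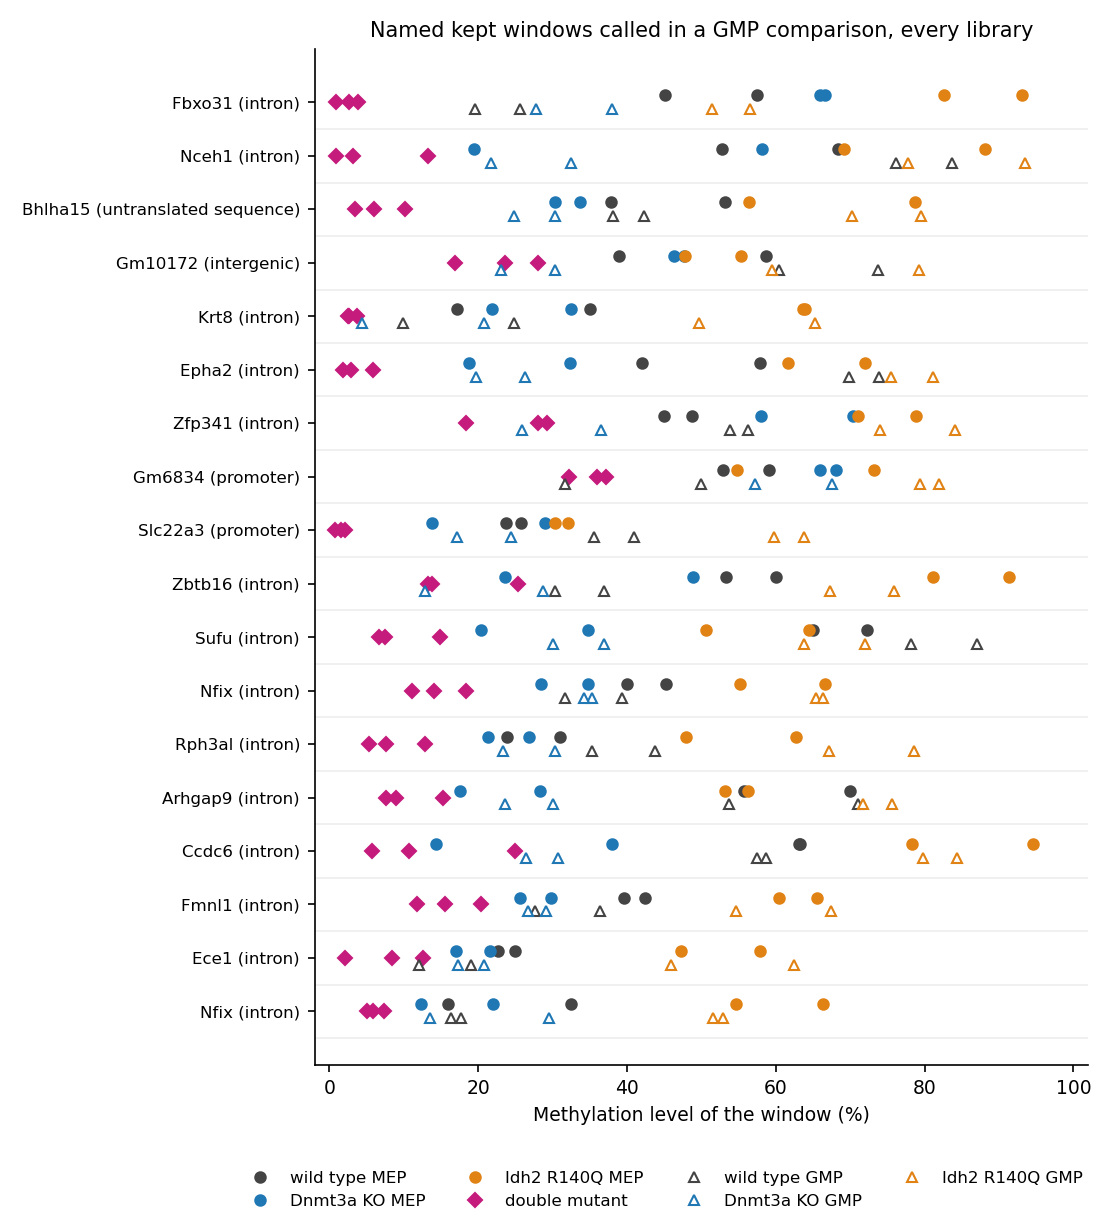
Methylation level (%) of named kept windows that were called in a GMP comparison, 1 row a window and 1 point a library, with circles for MEP, diamonds for the double mutant and open triangles for GMP. In the Epha2, Sufu and Arhgap9 rows the 2 knockout GMP libraries (19.7% to 37.0%) lie left of both wild type GMP libraries (53.7% to 87.0%), and in the Krt8 and Nfix rows both Idh2 mutant GMP libraries (49.6% to 66.4%) lie right of the other GMP.

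No test of the GMP differences over the 539 windows as a set was made. Of the 20 windows with the largest gaps, the Fbxo31 window was the 1 called in a GMP comparison. At Itga2b, Myof, Leprel2 and the intergenic window described first, GMP of all 3 genotypes lay at 66.3% or more. The low level there was seen only in the 3 double mutant libraries of the 15 measured.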

How the data were processed

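RRBS was run on 15 libraries of 7 groups. Reads were aligned with BSMAP 2.74 to mm9, per the submitters' processing notes. The deposited values used are counts, methylated and total reads at each cytosine, with a ceiling of 65535. The fraction deposited beside them equalled their ratio in every row and was not used further. How conversion and duplicate reads were handled is not given in the sources used here, so reads may not be independent molecules.

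Strands of a CpG were added. All 241527 CpGs with 10 or more reads in all libraries fell on CG in NCBIM37. A window's level is the percentage methylated of its reads summed over CpGs, so a read covering several CpGs counts at each. Groups are given as means with the SD over libraries. Genes come from gencode vM1; a window takes the gene whose promoter (1 kb either side of any transcript start), exon or intron holds its middle, or else the nearest start. A quasi-binomial logistic model over 7 groups tested the GMP differences, with dispersions squeezed by limma's squeezeVar (prior degrees of freedom 5.33) and not under 1, an F test and Benjamini-Hochberg adjustment over all windows. The prior left out 96 windows with no spread; the first fit included them (prior 3.13), and the change was made after its calls had been seen. It gives more calls, and both counts are printed. The scripts were tested on simulated data.

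Named windows were the 20 largest gaps without overlap, at most 1 per 10 kb, up to 10 called windows per GMP comparison by size of difference, windows of the gene lists, and 5 windows on each side of the threshold. The members and the 8 gene lists were chosen with earlier results of these data known. Replicate numbers do not pair libraries across genotypes, since deviations of same-numbered GMP libraries correlated at 0.007, -0.027 and -0.02. Alternatives were 20 reads, 500 bp windows, means of CpG levels, 5 CpGs, 20 or 25 points, non-overlapping libraries, limma, GMP libraries alone, a replicate block and leaving out each library. Software was R 4.3.3 with limma 3.58.1, and Python 3.11.15 with numpy 2.4.6 and pandas 2.3.3.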

Additional observations from a re-analysis of the deposited data

How the results depend on the processing

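The number of windows kept was 200 with 20 reads per CpG (191 of the 539 were still measured and 181 of them kept), 105 with 5 CpGs and 170 at 20 points, and 444 to 633 without 1 of the 9 libraries. With means of CpG levels it was 510, of which 443 were shared. By that level the gap was under 10 points in 10 of 54 named windows, and at Slc4a1 it became -5.63. With 20 reads it was under 10 points in 2 of the 24 named windows still measured, and at Kif26a it became -3.86. The filter on base changes was not run, since its columns hold no values.

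GMP calls are given as all windows and then kept windows, for knockout against wild type, Idh2 mutant against wild type and Idh2 mutant against knockout. As reported they were 70, 222 and 345, and 3, 11 and 40. With the prior from all windows, the first fit made and replaced after its counts had been seen, they were 39, 140 and 209, and 2, 6 and 25. With 20 reads they were 23, 91 and 116, and 2, 6 and 20. limma gave 0, 0 and 3 (1883, 3808 and 3333 at an unadjusted p under 0.05), and 0, 0 and 0. GMP libraries fitted alone gave 101, 380 and 657, and 9, 29 and 76. At 25 points 123 windows passed in the second comparison, and 500 bp windows gave 43 in the first. Without 1 library the ranges were 3 to 21, 0 to 311 and 16 to 200, and 0 to 1, 0 to 8 and 2 to 20. The replicate block gave 64, 273 and 398, and 3, 17 and 46; the numbers do not pair the libraries. The cause of these moves was not tested.

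Median differences over kept windows kept their sign under all settings run. They became -3.94 and 10.9 points for knockout against wild type and Idh2 mutant against knockout with 20 reads, and -3.31 and 9.55 with means of CpG levels. The last was 9.25 in 500 bp windows. Without 1 library they were -2.98 to -2.67, 4.81 to 6.21 and 8.2 to 9.44. Applying settings to single windows was added after seeing the data. The median depth was 150 reads per window and library, summed over CpGs, and a call needed 10 points by definition.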
